A study of Mus musculus with 4 samples.

Results

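The genes described here carry the transforming growth factor β (TGF-β) signal from ligand to nucleus: the ligand gene *Tgfb1*, the receptor genes *Tgfbr1* and *Tgfbr2*, the *Smad2*, *Smad3*, *Smad4*, *Smad6* and *Smad7* genes, and the corepressor genes *Ski* and *Skil*. Members were taken by name, as every non-control probe whose gene name in the array files is 1 of these 10, which gave 10 of 28095 gene names and 18 of 41174 probes. Of them, 16 probes of 9 genes were bright enough to be tested, against 22007 probes tested in all. The accessions of 16 of the 18 probes matched a gene in a RefSeq table, each with the same symbol, and no probe outside the rule matched a member.

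TGF-β ligands bring a type II and a type I receptor together, and the type I receptor kinase then phosphorylates Smad2 and Smad3. These receptor-regulated Smads join Smad4, the Smad shared with the bone morphogenetic protein (BMP) branch, and act on genes in the nucleus, while Smad6 and Smad7 hold the signal back and Ski and SnoN, the product of *Skil*, recruit corepressors to the Smad complex. In bone marrow the pathway is known for keeping hematopoietic stem cells out of cycle, and megakaryocytes and platelets are known as a rich store of the TGF-β1 protein.

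RNA of LSK cells, the lineage-negative bone marrow cells positive for Sca-1 and c-Kit that hold stem cells and early progenitors, was compared between Mx1-Cre positive Meis1fl/fl mice, called Meis1-KO, and Cre-negative Meis1fl/fl mice, called Meis1-WT, to ask which genes depend on the homeodomain transcription factor Meis1. The floxed exon 8 encodes the homeodomain, Mx1-Cre is switched on by interferon and is not limited to hematopoietic cells, and the strain is C57BL/6J. Mice of 4 to 8 weeks received poly(I:C) intraperitoneally at 1.5 µg/g in 4 injections 1 day apart, and cells were sorted 1 week later from 2 pools of 6 mice per genotype. The sample labels describe the poly(I:C) treatment for both genotypes, whereas the design text and the array methods call the Meis1-WT mice sham-treated, so that poly(I:C) and genotype cannot be told apart if the latter holds.

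Each of the 4 arrays of 60-base probes received Cy3-labeled product amplified from 10 ng of a pool's RNA. Replicate 1 of both genotypes lay on the same slide (slide 1) and replicate 2 of both on another (slide 2). All values below are log2 of the processed signal minus the array's 75th percentile unless stated otherwise, and differences are Meis1-KO minus Meis1-WT. Levels of different probes are not comparable, because each probe binds with its own strength. Between 49.2% and 57.4% of spots were well above background per array. Lowest in that share was the Meis1-KO array of slide 2, and correlations of log2 values with it were 0.934 to 0.946, against 0.967 to 0.977 among the other 3. The LSK markers *Kit*, *Ly6a*, *Cd34*, *Procr*, *Tek* and *Slamf1* were well above background on all 4 arrays. Markers of other cells were read as well: 2 of 8 B lineage genes (*Vpreb1* and *Cd79b*), 2 of 7 T and NK genes (*Nkg7* and *Klrb1c*), 2 of 6 macrophage and stroma genes (*Cd68* and *Emr1*), 3 of 5 plasma cell genes and 5 of 7 erythroid genes were well above background on all 4 arrays, whereas *Pax5*, *Igll1*, *Cd3e*, *Cd3g*, *C1qa*, *Col1a1* and *Lepr* were not on any. The brighter *Meis1* probe measured 0.25 and 0.22 in the Meis1-KO arrays and 1.02 and 1.45 in the Meis1-WT arrays, lower by the labels on both slides, with a log2 difference of -0.99 (SE 0.44, n = 2 per genotype). Whether it lies in the deleted exon was not analysed here.

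No member probe met the criteria of the study's methods, an unadjusted p under 0.01 with more than a 2-fold difference, in a model fitted with limma to all tested probes. Of all tested probes, 0.732% met them, and with the slide as a block 1.96% did, again with no member. In limma with Benjamini-Hochberg adjustment over all tested probes, the adjusted p was under 0.05 for no probe of any gene, and without adjustment 618 probes, no member among them, had a p under 0.05. The slide block gave 42 probes with an adjusted p under 0.05, again with no member. The member probes had adjusted p-values of 0.982 to 0.996. Their log2 differences ran from -1.22 for *Tgfb1* to 0.24 for a *Tgfbr1* probe, with a median of -0.20 beside 0.085 over all tested probes.

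The direction of the members leaned to lower values in Meis1-KO. The difference was below 0 for 11 of the 16 probes, against 43.5% of all tested probes. On both slides, 8 of the 16 were lower in Meis1-KO, against a background of 20.9%, and 1 was higher on both, against 30.3%. Values of the genotypes did not overlap, with Meis1-KO lower, for 3 probes of 2 genes (1 of *Tgfb1* and 2 of *Ski*), against 10.8% of all tested probes, and for none with Meis1-KO higher, against 16.0%. Some lists of markers of other cells also lay below 0, and the erythroid and megakaryocyte lists did not, with medians of 0.23 and 0.037. All 4 tested plasma cell genes were below 0, with a median of -1.31 and summed levels of 4.97 and 25.0 in Meis1-KO and 26.3 and 13.1 in Meis1-WT, as were 2 of 3 tested T and NK genes, with a median of -0.90. Of 6 tested granulocyte and monocyte genes and 3 tested macrophage and stroma genes, 1 each met the criteria with a lower level in Meis1-KO. Of 6 tested erythroid genes, 1 met them with a higher level, against 0.732% of all tested probes in either direction. The macrophage and stroma call was *Cxcl12*, at -4.26 and -3.53 in Meis1-KO and -1.10 and -1.64 in Meis1-WT. Its Meis1-KO values lay under the dimmest signals well above background on those arrays and are background readings. The part of such cells in the direction of the members was not tested. Probes of 1 gene share their transcript, so the counts of member probes are not of independent observations. Without the Meis1-KO array of slide 2, 7 of the 16 were lower, as were 7 without the Meis1-WT array of slide 1, against 15 without the Meis1-WT array of slide 2. With no scaling between arrays all 16 were lower, and the median over all tested probes was then -0.30 and that of the members -0.58.

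**Figure D1:**
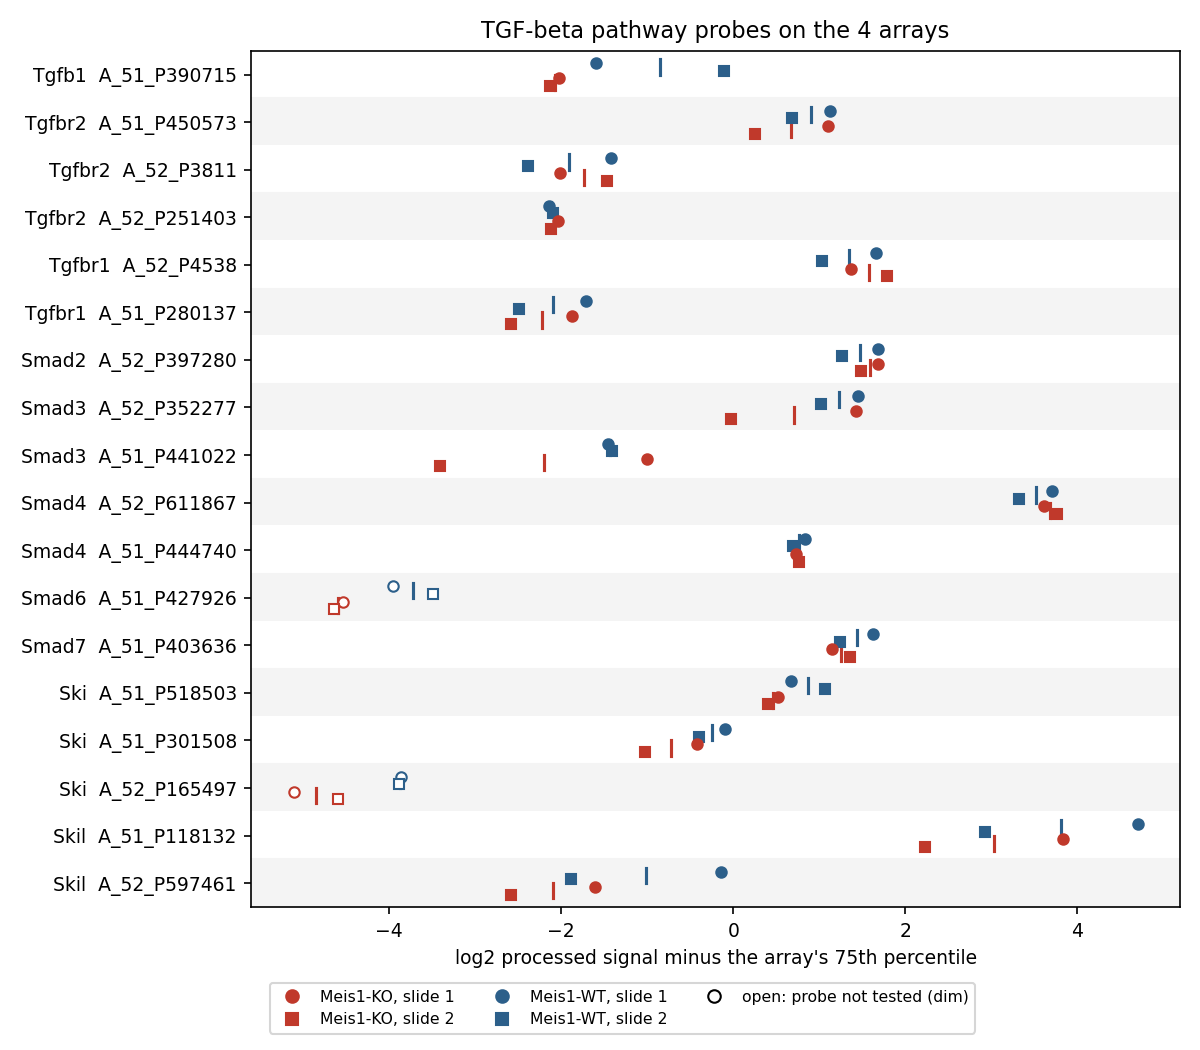
Level of each of the 18 member probes on each array, as log2 processed signal minus the array's 75th percentile. Red marks Meis1-KO and blue Meis1-WT, circles slide 1 and squares slide 2, vertical ticks the genotype means, and open symbols the 2 probes too dim to test; *Tgfb1* stands out in 1 Meis1-WT array at -0.11, *Smad3* in 1 Meis1-KO array, and *Skil* lies higher on slide 1 in both genotypes.

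Of the members, the ligand gene *Tgfb1* had the widest difference, and most of it came from 1 control pool. The gene is read by 1 probe at chr7:26489877-26489936 (mm9, plus strand), printed here in full because each array carries 10 spots of it. The 60 bases hold no stop codon in 2 of the 3 forward reading frames.
Tgfb1 A_51_P390715: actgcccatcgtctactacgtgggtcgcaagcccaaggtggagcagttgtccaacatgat
It measured -2.02 and -2.13 in the Meis1-KO arrays of slides 1 and 2, and -1.59 and -0.11 in the Meis1-WT arrays. Both Meis1-KO values lay below both Meis1-WT values, but the Meis1-WT array of slide 2 stood far above the other 3. The log2 difference was -1.22 (SE 0.59, 95% interval -2.66 to 0.21), or 0.428 of the control level, with an unadjusted p of 0.0828 and, by limma, an adjusted p of 0.982. With the slide as a block the unadjusted p was 0.0455 and the adjusted p 0.807. After normexp background correction the difference was -0.39, the nearest to 0 of all 15 alternatives.

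Spots of *Tgfb1* on the same array lay close together. On the Meis1-WT array of slide 2 the processed signals of the 9 spots kept ranged from 135 to 152, and on that of slide 1 the 8 spots kept ranged from 43.3 to 55.5. The log2 SD between spots of 1 array was 0.06 to 0.11, whereas the 2 control pools differed by 1.47 and the 2 Meis1-KO pools by 0.11. Of all tested probes, 4.19% had a wider gap between the control pools. The difference between genotypes was -0.43 on slide 1 and -2.02 on slide 2, and it was -0.49 without the high control array and -1.96 without the other control array.

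The same control pool was the highest of the 4 for 4 of 8 listed megakaryocyte and platelet genes, *Pf4*, *Itga2b*, *Gp9* and *Ppbp*, and not for *Vwf*, *Gp1ba*, *Gp1bb* and *Gp5*. *Pf4*, which encodes platelet factor 4, measured 1.85 and 2.93 in the Meis1-KO arrays and 2.62 and 4.85 in the Meis1-WT arrays of slides 1 and 2. *Itga2b*, which encodes the CD41 integrin chain of megakaryocytes, measured -2.71, -2.55, -1.90 and -0.085 in that order. Summed over the list of 8 megakaryocyte and platelet genes as linear multiples of the array's 75th percentile, the level was 11.2 and 13.5 in Meis1-KO, and 11.2 and 37.6 in Meis1-WT. Such a sum weighs genes by the brightness of their probes and is read here only across arrays. Without the *Pf4* probe it was 7.60 and 5.89 in Meis1-KO and 5.02 and 8.77 in Meis1-WT. Of these 8 genes, 7 were well above background on all 4 arrays, and none was dim on every array. On slide 1, where the summed levels were both 11.2, *Tgfb1* differed by -0.43. The summed erythroid level was 98.4 and 246 in Meis1-KO and 86.0 and 23.3 in Meis1-WT, and followed the bright *Hbb-b1* probe, at 6.55, 7.93, 6.30 and 4.46. Of the 7 erythroid genes, 3 were lowest in this pool (*Hbb-b1*, *Hba-a1* and *Rhag*), and none was dim on every array. The lineage antibodies of the sort were against CD3, B220, TER119, Gr-1 and CD11b, and CD41 was not among them. The part of such cells in the *Tgfb1* result was not tested, and in bulk RNA fewer cells of a type and less RNA per cell cannot be told apart.

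**Figure D2:**
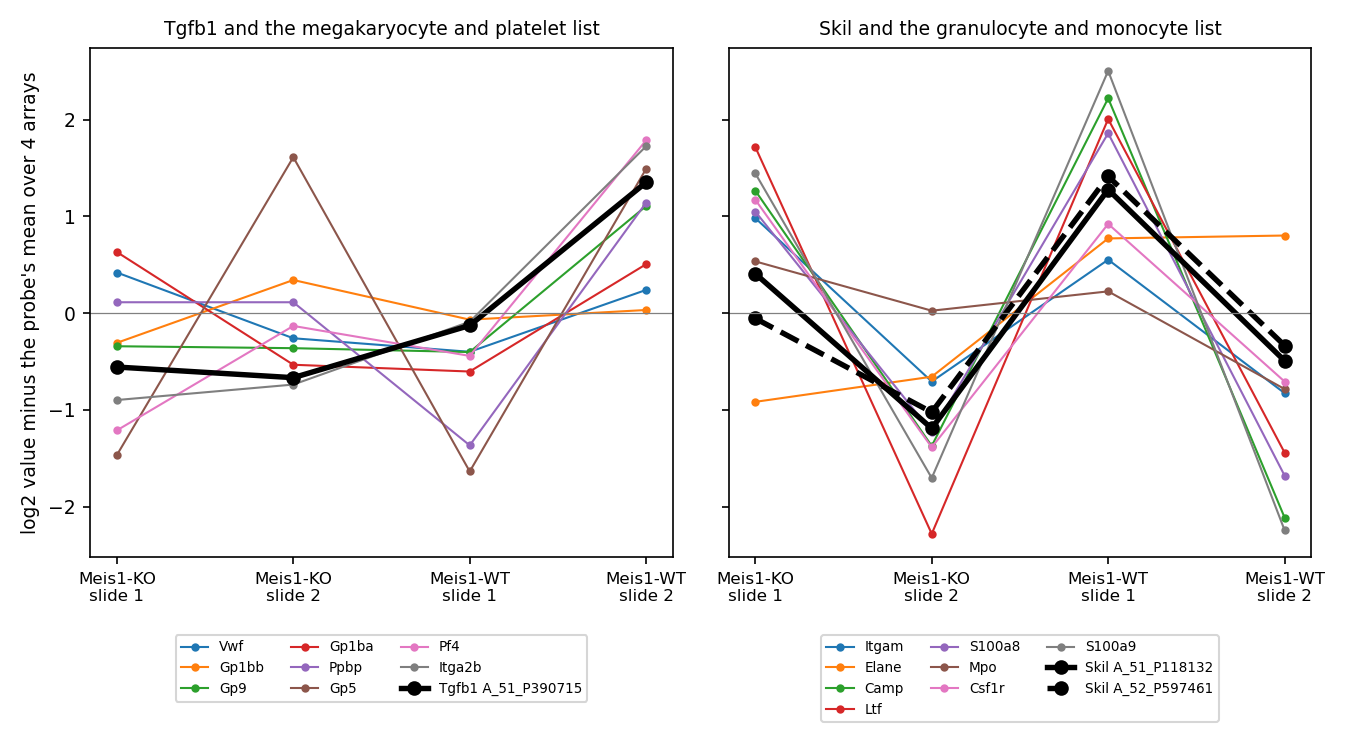
Log2 value of each probe minus its own mean over the 4 arrays (vertical axis), by array (horizontal axis), for *Tgfb1* (black) beside the 8 megakaryocyte and platelet genes (left) and for the 2 *Skil* probes (black) beside the 8 granulocyte and monocyte genes on the array (right). *Tgfb1*, *Pf4* and *Itga2b* peak in the Meis1-WT array of slide 2, and *Skil* and *S100a9* are higher on slide 1 than on slide 2 in both genotypes.

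The receptor genes differed little between the genotypes. *Tgfbr2* encodes the type II receptor that binds the ligand first, and 3 probes read it. The brightest measured 1.10 and 0.25 in Meis1-KO and 1.12 and 0.68 in Meis1-WT, with a log2 difference of -0.22 (SE 0.50) and overlapping values. A probe at chr9:116019196-116019255 (mm9, minus strand) gave nearly the same value on every array, -2.04 and -2.12 in Meis1-KO and -2.14 and -2.10 in Meis1-WT. Its difference was 0.037 (SE 0.42, 95% interval -0.98 to 1.05), and it is printed because its 4 values lay closest together of the member probes.
Tgfbr2 A_52_P251403: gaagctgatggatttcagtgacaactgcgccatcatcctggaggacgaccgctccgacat
The third *Tgfbr2* probe, designed on a cDNA clone, measured -2.01 and -1.47 in Meis1-KO and -1.42 and -2.39 in Meis1-WT, so that it was lower on slide 1 by 0.60 and higher on slide 2 by 0.92. Its mean difference was 0.16 (SE 0.53).

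*Tgfbr1* encodes the type I receptor kinase that passes the signal to the Smads. Its brighter probe measured 1.37 and 1.79 in Meis1-KO and 1.66 and 1.03 in Meis1-WT, a log2 difference of 0.24 (SE 0.47). Its dimmer probe, whose 60 bases span 3659 bases of the genome, measured -1.87 and -2.58 in Meis1-KO and -1.71 and -2.49 in Meis1-WT, a difference of -0.12 (SE 0.51). Values overlapped for both probes, and the probes differed in sign.

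Of the receptor-regulated Smads, *Smad2* hardly varied. Its single probe measured 1.68 and 1.49 in Meis1-KO and 1.68 and 1.27 in Meis1-WT, a difference of 0.11 (SE 0.44, 95% interval -0.95 to 1.17). *Smad3*, which shares the receptor kinase with *Smad2*, was low in 1 pool only. Its brighter probe measured 1.43 and -0.02 in Meis1-KO and 1.45 and 1.02 in Meis1-WT, and its dimmer probe -1.0 and -3.41 in Meis1-KO and -1.46 and -1.41 in Meis1-WT. For both probes the Meis1-KO array of slide 2 was the lowest of the 4, and there the dimmer probe was not well above background. The other 3 arrays lay together.

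The mean *Smad3* differences were -0.53 (SE 0.60) and -0.77 (SE 0.80), with 95% intervals of -1.99 to 0.93 and -2.71 to 1.18. On slide 1 they were -0.016 and 0.46, and on slide 2 they were -1.05 and -1.99. With the Meis1-KO array of slide 2 left out, both turned positive, at 0.20 and 0.43. With the Meis1-KO array of slide 1 left out instead, the dimmer probe reached -1.97 and was the 1 member probe to meet the criteria, with an unadjusted p of 0.00304 by limma. The Meis1-KO array of slide 2, on which that value then rests, was the dimmest of the 4 overall. After normexp background correction the dimmer probe differed by 0.041.

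*Smad4*, the partner that receptor-regulated Smads of both branches need, was even across the arrays. The brighter probe measured 3.61 and 3.76 in Meis1-KO and 3.71 and 3.32 in Meis1-WT, and the dimmer probe 0.73 and 0.77 in Meis1-KO and 0.84 and 0.70 in Meis1-WT. The differences were 0.17 (SE 0.44, 95% interval -0.89 to 1.22) and -0.025 (SE 0.42, 95% interval -1.05 to 1.00). The genotypes overlapped for both probes.

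The inhibitory Smads are themselves TGF-β and BMP target genes. *Smad7*, which blocks the type I receptor, measured 1.15 and 1.36 in Meis1-KO and 1.63 and 1.24 in Meis1-WT. The difference was -0.18 (SE 0.44, 95% interval -1.24 to 0.88), lower by 0.48 on slide 1 and higher by 0.12 on slide 2. *Smad6*, which acts mainly on the BMP branch, was not well above background on any of the 4 arrays with its 1 probe at chr9:63801378-63801437 (mm9, minus strand) and was not tested. The probe is printed because it is the only reading of this gene, and none of its 3 forward frames holds a stop codon.
Smad6 A_51_P427926: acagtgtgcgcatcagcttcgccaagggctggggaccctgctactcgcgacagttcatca

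The corepressor genes *Ski* and *Skil* were lower in Meis1-KO on both slides with each tested probe, none of them past the criteria. *Ski*, the cellular form of a retroviral oncogene, was read by 3 probes. The brightest measured 0.52 and 0.41 in Meis1-KO and 0.67 and 1.07 in Meis1-WT, and the next -0.42 and -1.03 in Meis1-KO and -0.10 and -0.40 in Meis1-WT. Both probes had Meis1-KO values below both Meis1-WT values, but the nearest values of the second probe, -0.42 and -0.40, were almost the same. The differences were -0.40 (SE 0.43, 95% interval -1.46 to 0.65) and -0.48 (SE 0.46, 95% interval -1.60 to 0.64), or 0.757 and 0.718 of the control level. Both stayed below 0 under all 15 alternatives tried, between -0.78 and -0.20 and between -0.86 and -0.17. Alternatives that change the filter, the block or the test leave the difference as it is, so only the others could turn its sign. The third *Ski* probe was well above background on the Meis1-WT array of slide 1 alone and was not tested.

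*Skil* had the largest differences of the members after *Tgfb1*, beside differences between slides. These were 1.60 in Meis1-KO and 1.77 in Meis1-WT for the brighter probe, and 0.97 and 1.75 for the dimmer. Its brighter probe measured 3.83 and 2.23 in Meis1-KO and 4.70 and 2.93 in Meis1-WT, and its dimmer probe -1.61 and -2.58 in Meis1-KO and -0.14 and -1.89 in Meis1-WT. Slide 1 was above slide 2 in both genotypes for both probes, and within each slide Meis1-KO was below Meis1-WT, so that the genotypes overlapped across slides. The differences within slides were -0.86 and -0.70 for the brighter probe and -1.46 and -0.69 for the dimmer. Across slides they were -0.78 (SE 0.80, 95% interval -2.71 to 1.16) and -1.08 (SE 0.71, 95% interval -2.79 to 0.64), and the adjusted p by limma was 0.982 for both. With the slide as a block the unadjusted p was 0.130 and 0.0517, and the adjusted p 0.957 and 0.836. Without the Meis1-KO array of slide 2 or the Meis1-WT array of slide 1 the brighter probe turned to 0.022 and 0.11, whereas the dimmer stayed below 0, between -1.95 and -0.20, with each array left out in turn. After normexp the dimmer probe differed by -0.38 and the brighter by -0.92. The corepressor probes below are shown because each has a reading frame open across its length, the dimmer *Skil* probe at chr3:31016390-31016449 (mm9, plus strand) and the *Ski* probe that was too dim to test at chr4:154533410-154533469 (mm9, minus strand).
Skil A_52_P597461: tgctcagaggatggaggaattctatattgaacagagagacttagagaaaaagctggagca
Ski A_52_P165497: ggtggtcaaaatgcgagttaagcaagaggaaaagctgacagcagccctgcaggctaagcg

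Granulocyte genes differed between the slides as well. Between the control pools the *Skil* probes differed by 1.77 and 1.75, and 2.23% and 2.32% of all tested probes differed more widely. *S100a9*, a calcium-binding protein gene of neutrophils, measured 5.0 and 1.85 in Meis1-KO and 6.06 and 1.31 in Meis1-WT on slides 1 and 2, and *S100a8*, its partner, 1.04, -1.24, 1.85 and -1.69 in that order. The summed level of the granulocyte and monocyte list, as linear multiples of the 75th percentile, was 159 on slide 1 and 88.5 on slide 2 in Meis1-KO, and 171 and 52.0 in Meis1-WT. Without the bright *Mpo* and *S100a9* probes it was 9.53 and 2.64 in Meis1-KO and 10.4 and 2.76 in Meis1-WT. All listed genes but *Elane*, 7 of 8, were higher on slide 1 in both genotypes. Of the 8 genes of this list on the array, 5 were well above background on all 4 arrays and none was dim on every array. The sort was set to remove cells positive for Gr-1 or CD11b, the product of *Itgam*, which is itself in the list. The part of these cells in the *Skil* values was not tested.

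**Figure D3:**
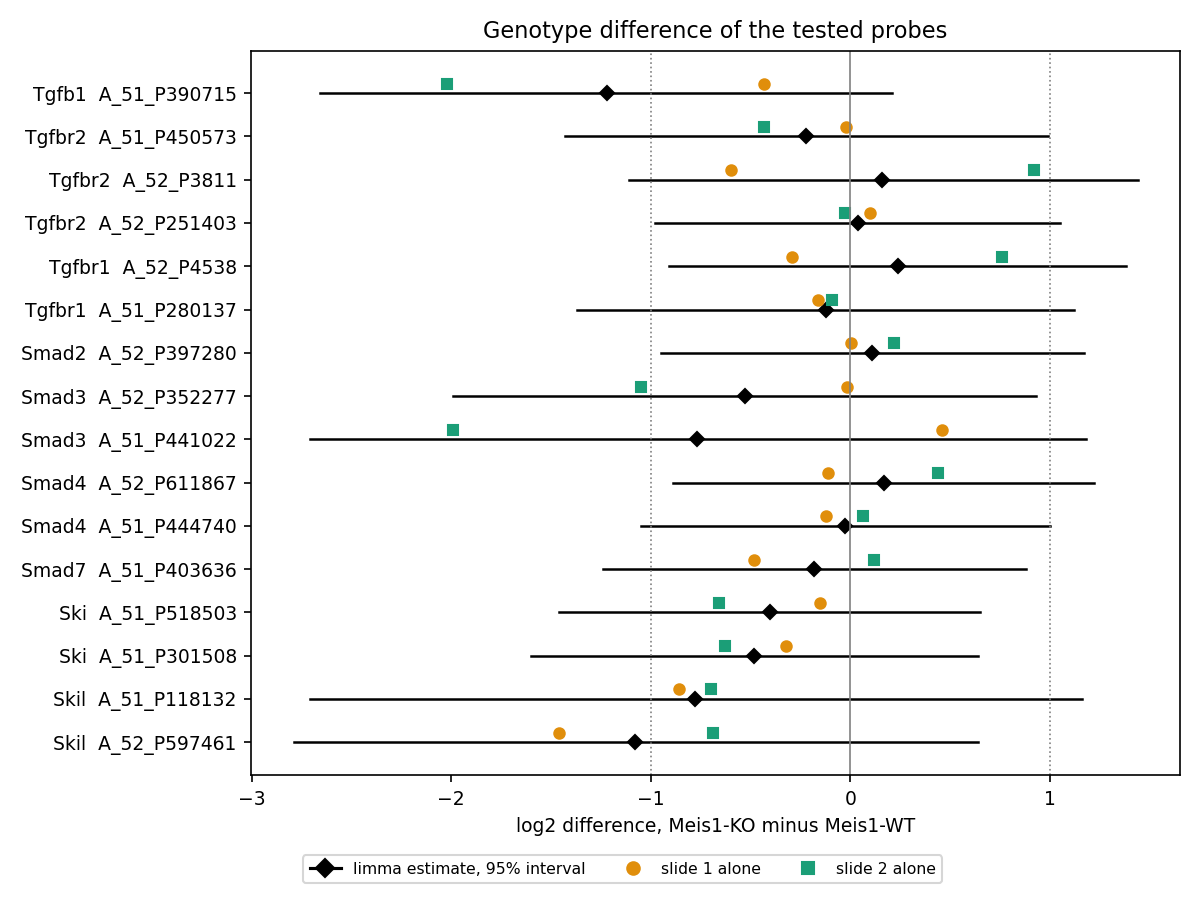
Log2 difference, Meis1-KO minus Meis1-WT, of the 16 tested member probes. Diamonds and lines are limma estimates with 95% intervals, circles and squares the differences on slide 1 and slide 2 alone, and dotted lines 2-fold. Every interval includes 0. Both slides lie below 0 for every tested probe of *Tgfb1*, *Ski* and *Skil*, and for 1 probe each of *Tgfbr1*, *Tgfbr2* and *Smad3*.

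The precision of these values was low. The 95% interval of every tested member probe included 0, and none lay wholly within 2-fold in both directions. For 12 of the 16 the interval reached a 2-fold lower level in Meis1-KO and for 9 a 2-fold higher level, so that values near 0, as for *Smad2*, *Smad4* and *Tgfbr2*, do not show equal expression.

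Other genes of the pathway were read from a list of 77 genes by role, of which 75 were on the array and 54 were tested with 98 probes. Of these probes, 62 were lower and 36 higher in Meis1-KO, so that 63.3% were lower against 43.5% of all tested probes. The criteria were met by 1, or 1.02%, a share near the 0.732% of all tested probes. That probe reads *Inhba*, which encodes the activin βA chain, a ligand that signals through Smad2 and Smad3. It measured -5.33 and -5.44 in Meis1-KO, on neither array well above background, and -2.71 and -3.14 in Meis1-WT, on both well above it. The probe passed the filter through Meis1-WT alone, and its Meis1-KO values are background readings. *Inhba* was at least 1.74-fold lower in Meis1-KO, taking the dimmest signals well above background as the floor, a bound under the 2-fold of the criteria, with an adjusted p of 0.723 by limma. Its fitted difference of -2.46 became 0.016 after normexp background correction, and without the Meis1-WT array of slide 1 it was -2.24 and no longer met the criteria, with an unadjusted p of 0.0227 by limma.

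Among ligands and latency proteins, 9 of 11 tested probes were lower and 1 met the criteria. *Thbs1*, which encodes thrombospondin-1, a platelet granule protein and activator of latent TGF-β, did not meet them without a block (unadjusted p of 0.0270 by limma) and met them with the slide as a block, with an unadjusted p of 0.00885 and an adjusted p of 0.487. It also met them with no filter on dim probes and without either array of replicate 1, at -3.37 and -3.54, but not without the Meis1-KO or the Meis1-WT array of slide 2, at -1.65 and -1.48, and it differed by -0.28 after normexp. It measured -3.49 and -5.21 in Meis1-KO and -2.87 and -0.81 in Meis1-WT, highest in the control array in which *Tgfb1* and *Pf4* were also highest. The probe was well above background on both Meis1-WT arrays but on only 1 of the 2 Meis1-KO arrays, that of slide 1, so these differences and calls rest in part, and without the Meis1-KO array of slide 1 wholly, on a background reading. *Ltbp3*, which encodes a latent TGF-β binding protein, differed by -0.82 (SE 0.49) with its brighter probe, and *Gdf11*, a ligand of the activin group, by 0.31 (SE 0.58).

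Among the other receptors, 8 of 13 tested probes were higher and none met the criteria. *Bmpr1a*, a BMP type I receptor gene, measured 0.10 and 1.35 in Meis1-KO and -0.86 and 0.092 in Meis1-WT with its brighter probe, a difference of 1.11 (SE 0.61, adjusted p of 0.982 by limma). It was 0.49 without the Meis1-KO array of slide 2 and 1.73 without that of slide 1. Its other probe differed by 0.93 (SE 0.47). The 3 probes of *Bmpr2*, the BMP type II receptor gene, differed by -0.23 (SE 0.52), 0.25 (SE 0.42) and 0.60 (SE 0.43). Of the BMP Smads, 4 of 5 tested probes were higher, from -0.45 for 1 of 3 *Smad5* probes to 0.45 for 1 of 2 *Smad1* probes, with no call. The other *Smad5* probes differed by 0.38 and 0.17, and the other *Smad1* probe by 0.090. Among Smad anchors, partners and regulators 20 of 34 tested probes were lower, among partners of the Ski family 12 of 16, and in the non-Smad arm 4 of 6, again with no call. *Zfyve16*, which encodes an endosomal Smad anchor, differed by 0.70 (SE 0.43) with 1 probe and by -0.15 (SE 0.43) with another. In the non-Smad arm, the kinase adaptor gene *Map3k7ip2* (*Tab2*) differed by 0.26 (SE 0.46) and -0.21 (SE 0.45) with its probes, and the ubiquitin ligase gene *Traf6* by -0.31 (SE 0.55) and 0.11 (SE 0.43).

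For Smad anchors, partners and regulators and for Ski family partners, the lowest differences rested on the Meis1-KO array of slide 2. This holds for probes well above background on all 4 arrays. *Crebbp*, a coactivator of Smad complexes, measured 3.11 and -2.92 in Meis1-KO and 3.01 and 1.98 in Meis1-WT, a difference of -2.39 (SE 1.79), with 1 of its 3 probes. The other *Crebbp* probes, also well above background on all 4 arrays, differed by -0.39 (SE 0.45) and 0.40 (SE 0.42). *Ncor1*, the nuclear corepressor that binds Ski, measured 0.76 and -2.44 in Meis1-KO and 0.75 and 0.29 in Meis1-WT with 1 probe, a difference of -1.36. The other probes on its RefSeq accession differed by -1.36 (SE 0.88) and -0.31 (SE 0.59). A pair of probes that the array names *Ncor1* lies on the opposite strand to those, and they account for 2 of the 4 higher probes in the group, at 0.96 and 0.51. Without that array the *Crebbp* probe differed by 0.62 and the first *Ncor1* probe by 0.24.

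Of the textbook TGF-β target genes, 11 of 13 tested probes were lower, against 43.5% of all tested probes, and none met the criteria. Some of the 11 were near 0, such as an *Id1* probe at -0.045 and *Cdkn1c* at -0.081. The list was not split by whether TGF-β raises or lowers a gene, so the count gives no direction of the pathway's output. *Id2*, an inhibitor of basic helix-loop-helix factors, had the largest difference. It measured -2.81 and -2.42 in Meis1-KO and -1.59 and -1.44 in Meis1-WT, without overlap, a difference of -1.10 (SE 0.43, 95% interval -2.16 to -0.049, adjusted p of 0.982 by limma), which was -0.079 after normexp. The brighter *Id2* probe measured 0.48 and 0.23 in Meis1-KO and 1.27 and 0.64 in Meis1-WT, a difference of -0.59 (SE 0.46, 95% interval -1.71 to 0.52). The probes of the immediate early gene *Junb* differed by 0.19 (SE 0.44) and -0.35 (SE 0.50). *Cdkn2b* and *Ctgf* were too dim to test.

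**Figure D4:**
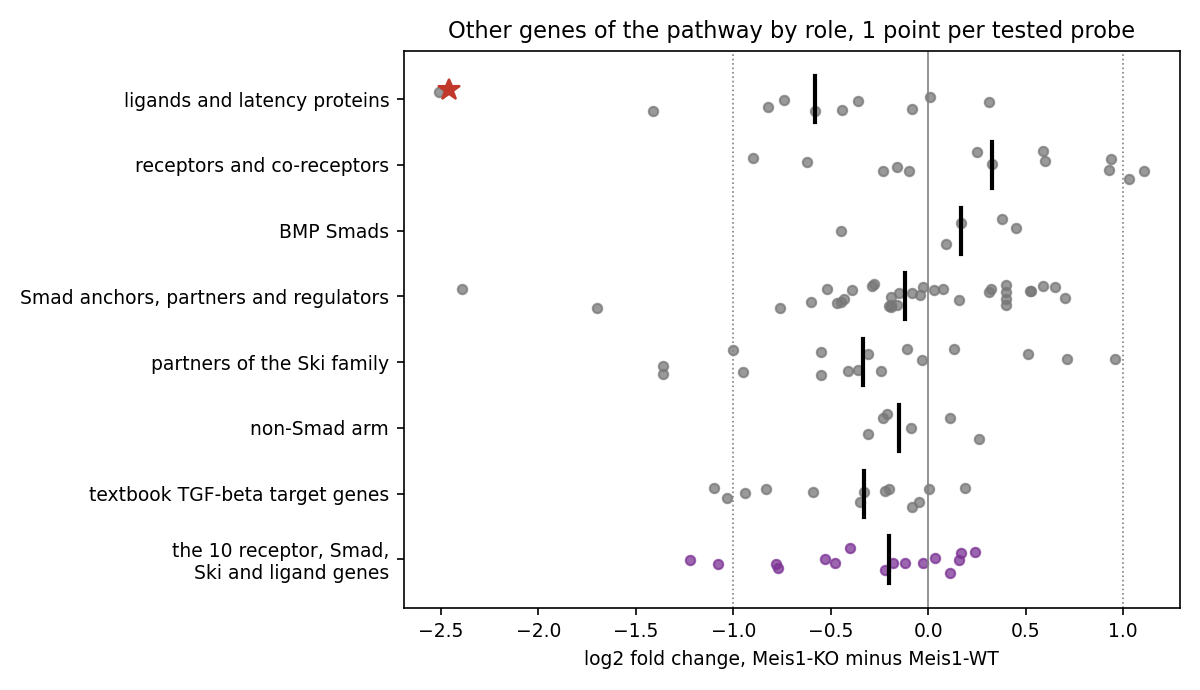
Log2 fold change, Meis1-KO minus Meis1-WT (horizontal axis), of the 98 tested probes of other pathway genes by role and, in purple, of the 16 tested member probes. Each point is a probe, black bars are medians, dotted lines mark 2-fold, and the red star is *Inhba*, the 1 probe that met the criteria; medians run from -0.58 for ligands and latency proteins to 0.33 for receptors and co-receptors.

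Promoter windows of 300 bases around the annotated start (RefSeq, GRCm38.p6) were found for *Tgfb1*, *Tgfbr1*, *Tgfbr2*, *Smad3*, *Smad6* and *Ski*, with 7 windows in all. The Meis half-site TGACAG, searched on both strands, was in 1 of them (*Smad6*), and in 19.2% of all 32851 promoter windows. The Smad half-site CAGAC was in the windows of *Tgfbr1* and *Tgfbr2*, and in 49.6% of all. The Smad palindrome GTCTAGAC was in the window of *Smad6*, and in 0.213% of all. These are matches of letters only.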

How the data were processed

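The microarray measured RNA of LSK cells on 4 arrays, grouped by genotype from the sample labels. The authors deposited, for each array, spot intensities from Feature Extraction 9.5.3.1 per the file headers (9.1 in the submitters' processing notes), with background subtracted, trends within the array corrected and a surrogate value for the 25.2% to 33.2% of spots not above background. The deposited table of the series holds the same linear intensities, rounded, within 0.496% of the processed signal, with medians of 17.9 and 10.2 in the Meis1-KO arrays and 16.9 and 20.5 in the Meis1-WT arrays and no scaling between arrays. No spot was saturated.

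Control and outlier spots were left out, the array's 75th percentile was subtracted from log2 values, and spots of a probe were averaged. Tests were run on probes that both arrays of either genotype read well above background. Genotypes were compared with limma 3.58.1 (lmFit and eBayes) in R 4.3.3, without covariates and with Benjamini-Hochberg adjustment over all tested probes. In a test on simulated data of this comparison with 22007 probes, 88.5% of the 200 probes given a log2 change of 3 were called, as were 211 unchanged probes. A bound for a dim probe sets the mean of the bright genotype against the lowest signal well above background on each dim array, or the probe's own signal where higher. A block for the slide was fitted because replicate numbers mark shared slides, and, across probes, the correlation of their deviations from the mean of the genotype was 0.266. An exact permutation test of 2 against 2 pools cannot give a two-sided p below 0.333, so none was run.

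The members, the pathway list and the marker lists were chosen with earlier results of these data known. Some listed genes are not reported here. From the pathway list, probes past the criteria (with or without the block) were named, as were the lowest and highest differences of each role among probes well above background on all 4 arrays. *Meis1* was named as the targeted gene, and marker genes were named for the values they share with *Tgfb1* and *Skil*, after their values were seen. Positions are those of the array's annotation (mm9), and exons were not used here. The alternatives were normexp background correction with an offset of 50, median, quantile or no scaling, the series table, no filter on dim probes or a filter that needs all 4 arrays, keeping outlier spots, the slide block, the methods' t-test, limma with an intensity trend, and each array left out. Precision is limited by the number of arrays and by the signal over background.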

Additional observations from a re-analysis of the deposited data

How the results depend on the processing

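With 2 arrays per genotype, most member differences lie within the spread between pools, and no call of a member depended on the scaling. No member probe met the criteria under any alternative except 1 *Smad3* probe when an array was left out, and 11 of the 16 tested member probes were lower in Meis1-KO, against 7 to 15 with each array left out in turn and 16 with no scaling. Where 1 array of a genotype remained, its spread was taken by limma from the other genotype. The causes of these shifts were not tested.

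Over all tested probes, 161 met the criteria, 131 lower and 30 higher in Meis1-KO. With the replicate block (slide) the number was 431 (303 lower, 128 higher), and the pathway list had 2 calls instead of 1, the added one being *Thbs1* at -2.51, well above background on 1 of its 2 Meis1-KO arrays. With normexp it was 48 (46 and 2), with limma's intensity trend 101 (85 and 16), by the methods' t-test 30 (23 and 7), none of the 30 with an adjusted p under 0.05, and with the filter on all 4 arrays 54 (43 and 11), each but the t-test with 0 pathway calls. Without a filter it was 294 with 101 higher and 2 pathway calls, and with no scaling 14 were higher. The share of calls that were lower was 81.4%, and it was 95.8% with normexp, 65.6% without a filter, 70.3% with the block, 53.3% without the Meis1-WT array of slide 1 and 61.3% without that of slide 2. Leaving out each array in turn gave 107 to 2225 calls (57 to 1707 lower, 34 to 518 higher), 0 to 1 member calls and 1 to 10 pathway calls, the highest numbers without the Meis1-KO array of slide 1. Without the Meis1-WT array of slide 1 the 1 pathway call was *Thbs1* and not *Inhba*.

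Signs of log2 differences turned under single alternatives. With normexp, *Tgfbr1* A_51_P280137 gave 0.22, *Smad2* -0.035, *Smad3* A_51_P441022 0.041, *Smad4* A_52_P611867 -0.026, *Inhba* 0.016 and *Junb* -0.027. With median scaling *Smad4* A_51_P444740 gave 0.059. With quantile normalization *Smad4* A_52_P611867 gave -0.011 and *Junb* -0.15. With no scaling *Tgfbr2* A_52_P3811 gave -0.22 and A_52_P251403 -0.34, *Tgfbr1* A_52_P4538 -0.14, *Smad2* -0.27, *Smad4* A_52_P611867 -0.21, *Gdf11* -0.074, *Map3k7ip2* -0.12 and *Junb* -0.19.

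With each array left out in turn, the difference ranged from -0.65 to 0.20 for *Tgfbr2* A_51_P450573, -0.32 to 0.65 for A_52_P3811 and -0.0021 to 0.076 for A_52_P251403. It ranged from -0.081 to 0.55 for *Tgfbr1* A_52_P4538 and -0.51 to 0.26 for A_51_P280137, and from -0.092 to 0.31 for *Smad2*. For *Smad3* it ranged from -1.26 to 0.20 (A_52_P352277) and -1.97 to 0.43 (A_51_P441022), for *Smad4* from -0.029 to 0.36 (A_52_P611867) and -0.096 to 0.047 (A_51_P444740), for *Smad7* from -0.37 to 0.015, and for *Skil* A_51_P118132 from -1.66 to 0.11. Of the other pathway genes, *Gdf11* ranged from -0.34 to 0.95, *Bmpr2* from -0.78 to 0.31, *Crebbp* from -5.41 to 0.62, *Ncor1* A_52_P561927 from -2.96 to 0.24, *Map3k7ip2* from -0.069 to 0.60, and *Traf6* from -0.78 to 0.16. Without a turn of sign, *Ltbp3* A_51_P233101 ranged from -1.16 to -0.48 and *Smad5* A_51_P452207 from -0.82 to -0.08. *Smad1* A_51_P409260 ranged from 0.14 to 0.75 and *Ncor1* A_51_P457744 from 0.46 to 1.46. *Tgfb1*, both *Ski* probes and *Skil* A_52_P597461 stayed below 0 under all 15 alternatives. Changing the filter, the block or the test leaves these differences as they are, so only the other alternatives could turn a sign.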
